A study of Mus musculus and Homo sapiens with 24 samples.

Results

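The genes described here are 10 members of the methionine cycle, *MAT1A*, *MAT2A*, *MAT2B*, *GNMT*, *PEMT*, *AHCY*, *MTR*, *BHMT*, *BHMT2* and *CBS*, taken by symbol from a HepG2 table of 28278 genes. All 10 symbols had a row, and all 10 passed the filter on low counts when the 12 HepG2 libraries were fitted together. HepG2 is an established human liver tumor line that makes many plasma proteins, and it stands here for a single source of cells. The 12 RNA-Seq libraries fell into 4 groups of 3, labelled replicates A, B and C. Control cells received neither agent, CoCl2 cells 50 μM of that salt, Estrogen cells 25 nM β-estradiol, and CoCl2+Estrogen cells both agents at those doses, for 4 hours. CoCl2, cobalt chloride, stabilizes the oxygen-regulated factor HIF1α and serves as a chemical mimic of hypoxia. The comparisons ask how each agent alone and the pair together changed expression, in a study of Protein S under estrogen and obesity. No label says that the replicates were separate cultures, so that p-values measure the spread between these libraries, which may be technical.

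In the methionine cycle, methionine adenosyltransferase joins methionine to ATP and makes S-adenosylmethionine (SAM), the methyl donor for phospholipids, DNA, RNA and proteins. Methyl transfer leaves S-adenosylhomocysteine (SAH), which is hydrolysed to homocysteine. Homocysteine is then remethylated to methionine with a methyl group from folate or betaine, or leaves the cycle toward cysteine by transsulfuration. The liver carries most of this flux and has its own form of the SAM synthetase, which hepatocytes lose in favor of the widespread form as they proliferate.

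Library totals ran from 13592637 to 21701480 estimated reads, with both ends in the CoCl2 group. The 10 most abundant genes took 9.92% of the reads of CoCl2 replicate B, the smallest library, and 6.07% to 7.55% in the other 11. Summed over 10 hepatocyte and hepatoma markers, expression was 27100 to 29639 CPM (a gene's share of the scaled library) in Control, 29454 to 30361 in CoCl2, 15253 to 16681 in Estrogen and 16800 to 17510 in CoCl2+Estrogen libraries. Of these 10 markers, 9 were called lower and 1 higher in Estrogen against Control, and 0 were called in CoCl2 against Control (edgeR). Of all tested genes, 68.9% were called under estrogen, 34.2% lower, and 1.44% under CoCl2, so that 0 of 10 says little about the markers. The 8 markers of other cell types summed to 106 to 113 CPM in Control, 104 to 116 in CoCl2, 71.0 to 79.0 in Estrogen and 64.5 to 79.4 in CoCl2+Estrogen libraries, and 3 of them, *PTPRC*, *CD3E* and *KRT5*, had no count in any library. Levels are given throughout as CPM after scaling by the trimmed mean of M values (TMM), and they can be compared between libraries but not between genes, since no transcript lengths were used. In bulk RNA, fewer cells expressing a gene and less of its RNA per cell cannot be told apart.

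Estrogen lowered most of the cycle. In Estrogen against Control, 8 of the 10 members fell and 1, *MAT2B*, rose, while *CBS* did not pass the threshold (adjusted p = 0.0528, edgeR's quasi-likelihood test on all tested genes, Benjamini-Hochberg adjusted p at most 0.05). The same rule called 68.9% of the 16281 tested genes, 34.2% in the lower direction, so that a call alone is common in this comparison. *GNMT*, among the 8, passed the filter on low counts only through libraries without estrogen, and its call adds no support. The median log2 fold change was -0.99 over the members against -0.004 over all tested genes. Summed over the members, expression was 966 to 1009 CPM in Control and 626 to 668 CPM in Estrogen libraries, and the hepatocyte markers fell beside it, as given above. Their part in the change was not tested.

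CoCl2 alone moved 1 member. *MAT2A* rose, and the other 9 did not pass the threshold in CoCl2 against Control, where 1.44% of 15872 tested genes were called by edgeR. The members' median log2 fold change was -0.02, and 1 of the 10 had an unadjusted p under 0.05, beside 1789 of the 15872 tested genes.

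With both agents, 8 of the 10 members fell against Control and the other 2, *MAT2A* and *MAT2B*, did not pass the threshold (edgeR; 65.4% of 16201 tested genes called, 33.2% lower). Among these 8, the call of *CBS* depends on single libraries and on how its reads were divided with a copy, as given below, and *GNMT* again passed the filter only through libraries without estrogen. Against CoCl2 alone, 8 members fell, *GNMT* among them in the same way, and *MAT2B* and *CBS* did not pass (edgeR; 60.9% of 16200 genes called, 30.8% lower). Median log2 fold changes were -0.67 and -0.75, beside -0.01 and -0.003 over all genes. Against Estrogen alone, 9 members could be tested, of which *MAT2A* and *BHMT2* were called higher and *MAT2B* lower (edgeR; 17.0% of 15925 genes called). The 3 comparisons with Control share the same 3 Control libraries.

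**Figure D1:**
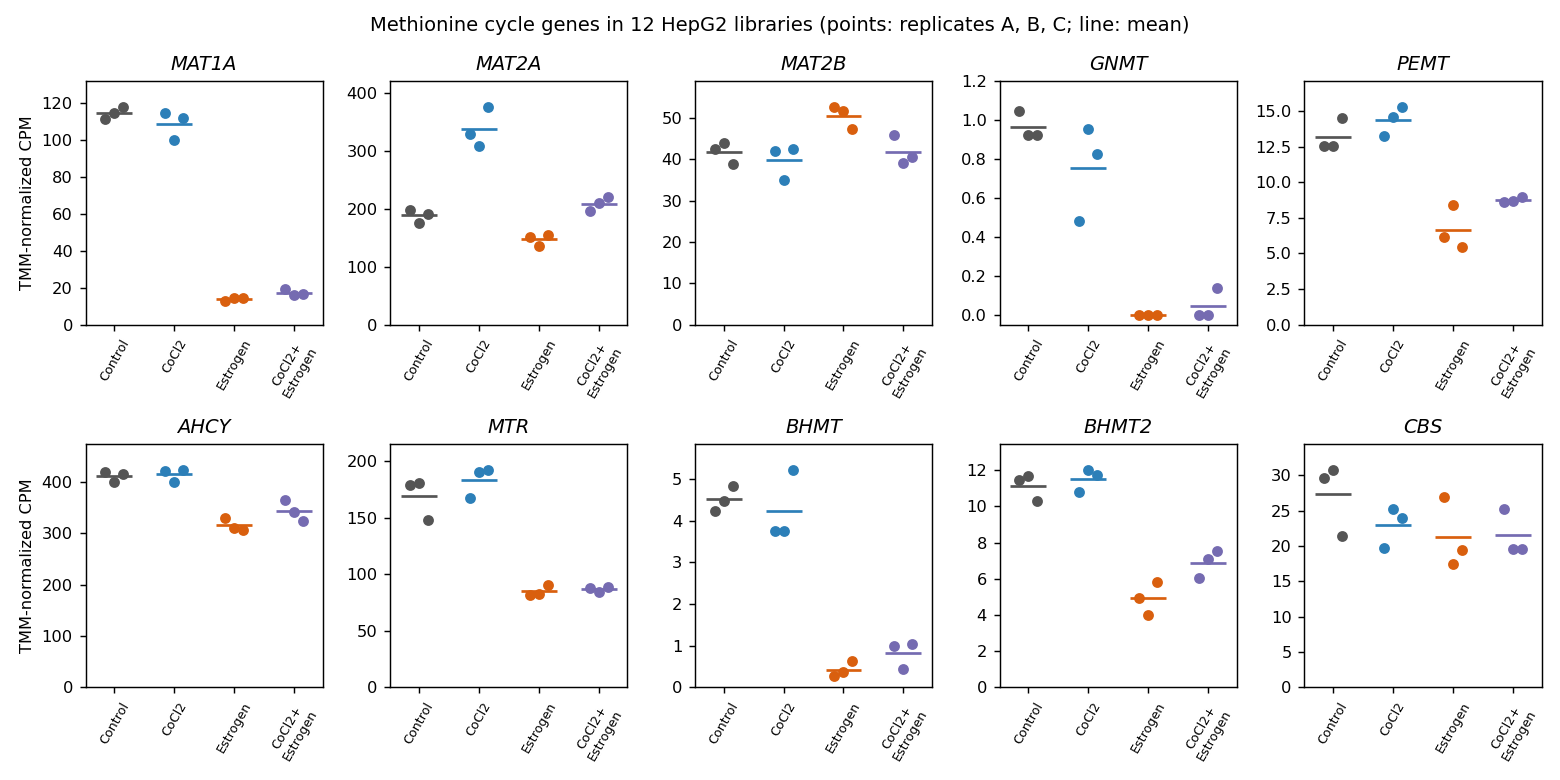
Expression of each of the 10 genes in the 12 libraries, on a linear axis from 0 in TMM-scaled CPM (just below 0 for *GNMT*, so that its points at 0 are seen). Points are replicates A, B and C of each group, and lines are group means. *MAT1A*, *BHMT* and *GNMT* sit near the bottom of their panels in both estrogen groups, *MAT2A* is highest in the CoCl2 group, and *CBS* overlaps between all 4.

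*MAT1A* encodes the catalytic subunit of the liver form of methionine adenosyltransferase. Its level was 111, 114 and 118 CPM in Control replicates A, B and C, and 115, 99.9 and 112 CPM in the CoCl2 replicates. In the Estrogen replicates it was 12.9, 14.3 and 14.6 CPM, and in CoCl2+Estrogen 19.3, 15.9 and 16.6 CPM. Every library without estrogen was thus above every library with it, while Control and CoCl2 overlapped. *MAT1A* fell by 3.04 on the log2 scale under estrogen (SE 0.08), which is 8.24-fold (edgeR adjusted p = 1.00e-13), and the change under CoCl2 was -0.06 (SE 0.07, edgeR adjusted p = 0.787). Added to CoCl2, estrogen lowered *MAT1A* by 6.42-fold (log2 fold change -2.68, SE 0.10, edgeR adjusted p = 3.86e-10). Within each group the coefficient of variation was between 2.90% and 10.5%, small beside these changes. The CoCl2+Estrogen libraries were all above the Estrogen libraries, with a log2 difference of 0.32 (SE 0.11) that missed the threshold (edgeR adjusted p = 0.0578) and passed it under some alternatives (adjusted p down to 0.0364 with all 12 libraries in the fit).

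*MAT2A* encodes the catalytic subunit of the form found in most other tissues and in proliferating or transformed liver cells. Control replicates had 197, 176 and 192 CPM, and CoCl2 replicates 329.6, 308 and 376 CPM. Estrogen replicates had 152, 136 and 155 CPM, and CoCl2+Estrogen replicates 196, 209 and 219.5 CPM. The CoCl2 group lay above all others and the Estrogen group below all others, while CoCl2+Estrogen overlapped Control. *MAT2A* rose 1.80-fold with CoCl2 (log2 fold change 0.85, SE 0.08, edgeR adjusted p = 0.000133), and the log2 fold change was between 0.78 and 0.90 when each of the 6 libraries was left out in turn. Estrogen alone lowered it 1.27-fold (-0.35, SE 0.07, edgeR adjusted p = 0.000329). Where CoCl2 was present, estrogen lowered it 1.65-fold (-0.72, SE 0.08, edgeR adjusted p = 3.45e-06), and where estrogen was present, CoCl2 raised it 1.42-fold (0.50, SE 0.06, edgeR adjusted p = 2.51e-05). Both agents together left a log2 difference from Control of 0.11, with a 95% interval of -0.03 to 0.25 (edgeR adjusted p = 0.149).

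*MAT2B*, the regulatory subunit that binds the *MAT2A* product, was the only member called higher with estrogen. It had 42.6, 43.9 and 39.0 CPM in Control, 42.0, 34.9 and 42.5 in CoCl2, 52.6, 51.7 and 47.4 in Estrogen and 46.0, 39.0 and 40.5 in CoCl2+Estrogen libraries. The Estrogen libraries were above those of every other group, and the other 3 groups overlapped. *MAT2B* rose 1.21-fold under estrogen (log2 fold change 0.28, SE 0.07, edgeR adjusted p = 0.00374). This call is lost when library totals alone set the scale (log2 fold change 0.15, edgeR adjusted p = 0.0870). In CoCl2+Estrogen against Estrogen it fell by 0.27 (SE 0.08, edgeR adjusted p = 0.0257), a call that was lost without any of 4 libraries, Estrogen replicates A or B or CoCl2+Estrogen replicates B or C (adjusted p up to 0.110).

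Because the 2 catalytic genes moved to different degrees, the ratio of their counts was taken within each library, which needs no scaling between libraries. The log2 ratio of *MAT1A* to *MAT2A* counts was -0.83, -0.62 and -0.70 in Control and -1.53, -1.63 and -1.74 in CoCl2 libraries. It was -3.56, -3.25 and -3.41 in Estrogen and -3.34, -3.72 and -3.73 in CoCl2+Estrogen libraries. Control, CoCl2 and the estrogen groups did not overlap, and the estrogen groups overlapped each other. The ratio was 1.88-fold lower with CoCl2, 6.45-fold lower with estrogen and 7.36-fold lower with both agents than in Control. Each of these had an exact two-sided permutation p of 0.1, the smallest that 3 libraries against 3 allow, and an adjusted p of 0.143 over the 10 ratio comparisons made. The ratio restates values of the 2 genes already given for the same libraries, so its test adds no support of its own. Adding CoCl2 to estrogen gave a log2 difference of -0.19 (SE 0.16, exact permutation p = 0.3). Ratios describe unequal change of the 2 genes and do not give the ratio of their transcripts, since lengths were not used.

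**Figure D2:**
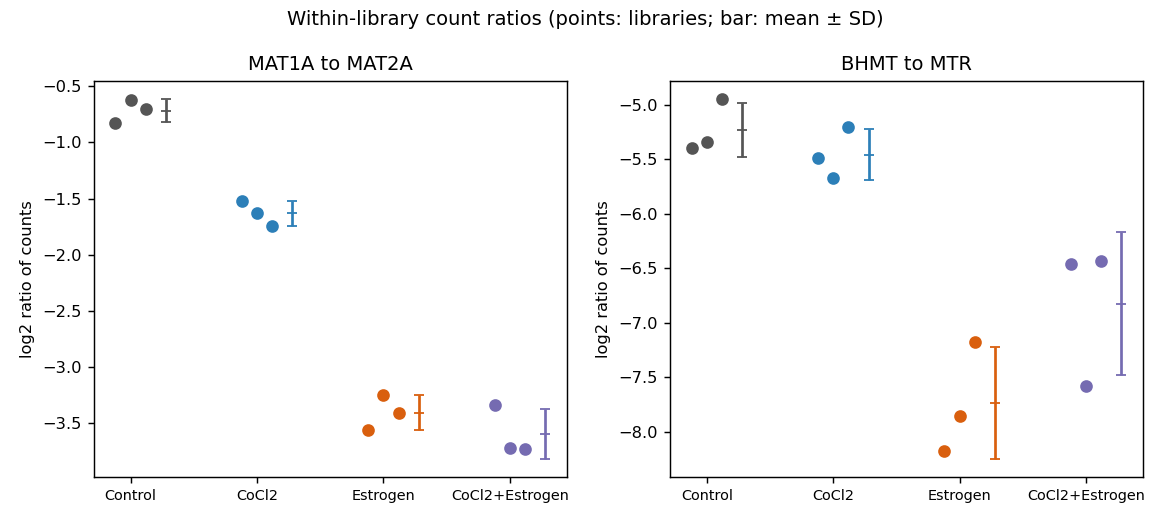
Within-library log2 ratio of *MAT1A* to *MAT2A* counts (left) and of *BHMT* to *MTR* counts (right) in the 4 groups. Points are single libraries, and bars show the mean ± SD of 3. On the left, the mean falls from -0.72 in Control to -1.63 in CoCl2, -3.41 in Estrogen and -3.60 in CoCl2+Estrogen. On the right, Control and CoCl2 lie between -5.68 and -4.95 and the estrogen groups between -8.18 and -6.43.

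Among the members, *GNMT* and *PEMT* encode enzymes that use SAM. *PEMT* was called lower with estrogen, while the counts of *GNMT* were too low for its call to add support. *GNMT*, glycine N-methyltransferase, spends surplus SAM on glycine and is abundant in normal liver. It was barely detected here, with 20, 20 and 16 counts in Control, 9, 13 and 18 in CoCl2, 0, 0 and 0 in Estrogen and 0, 0 and 2 in CoCl2+Estrogen libraries. No library with estrogen reached the lowest count of a library without it. Set against a floor of 3 counts per library, *GNMT* was at least 4.91-fold lower with estrogen than in Control. Since it entered the test only through the libraries where it is higher, its p-values and intervals are not given. With both agents the summed counts were 22.1-fold lower than Control and 17.0-fold lower than CoCl2. Both ratios rest on 2 counts in CoCl2+Estrogen replicate C, below the floor, against which the bounds are 4.90-fold and 3.84-fold. Without that library the fitted log2 fold change against Control moved from -4.28 to -7.13, and against CoCl2 from -3.90 to -6.70. The group then held no *GNMT* count, so that these lower values do not measure the size of the fall.

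A readthrough row, *CNPY3-GNMT*, covers the same gene and took between 0 and 14 counts per library. Summed with it, *GNMT* had 21, 35 and 17 counts in Control and 17, 13 and 18 in CoCl2 libraries. The sums were 0, 5 and 1 in Estrogen and 6, 1 and 2 in CoCl2+Estrogen libraries. Fitted log2 fold changes of the sum were -3.18 under estrogen, and -2.64 and -2.16 with both agents against Control and against CoCl2. Among libraries with estrogen, only CoCl2+Estrogen replicate A exceeded the filter's 5 counts, so p-values of the sum are not given either. The separation from the readthrough transcript rests on few reads, and the level of *GNMT* alone is uncertain.

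*PEMT* encodes the methyltransferase that converts phosphatidylethanolamine to phosphatidylcholine, a large consumer of SAM in liver. Its level was 12.5, 12.5 and 14.5 CPM in Control and 13.2, 14.6 and 15.3 CPM in CoCl2 libraries, which overlapped. With estrogen it was 6.12, 8.41 and 5.46 CPM, and with both agents 8.58, 8.66 and 8.93 CPM, below every library without estrogen. *PEMT* fell by 0.99 under estrogen alone (SE 0.15, 1.98-fold, edgeR adjusted p = 3.04e-05) and by 0.74 when estrogen was added to CoCl2 (SE 0.12, 1.67-fold, edgeR adjusted p = 9.59e-05). Estrogen replicate B lay close to the CoCl2+Estrogen libraries, and the difference between the 2 estrogen groups was 0.40 (SE 0.15, edgeR adjusted p = 0.0854).

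*AHCY*, the hydrolase that removes SAH and so relieves its inhibition of methyltransferases, changed least among the members that fell in all 3 comparisons of an estrogen group with a group without it. Control had 420.3, 400.2 and 417 CPM and CoCl2 422, 399 and 424 CPM. Estrogen had 330.3, 311 and 307 CPM and CoCl2+Estrogen 365, 342 and 323 CPM, so that the estrogen groups overlapped each other and neither reached the others. *AHCY* fell 1.30-fold under estrogen (log2 fold change -0.38, SE 0.06, edgeR adjusted p = 2.17e-05) and 1.23-fold when estrogen was added to CoCl2 (-0.30, SE 0.07, edgeR adjusted p = 0.00167). The CoCl2 difference was 0.02, with a 95% interval of -0.12 to 0.15.

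**Figure D3:**
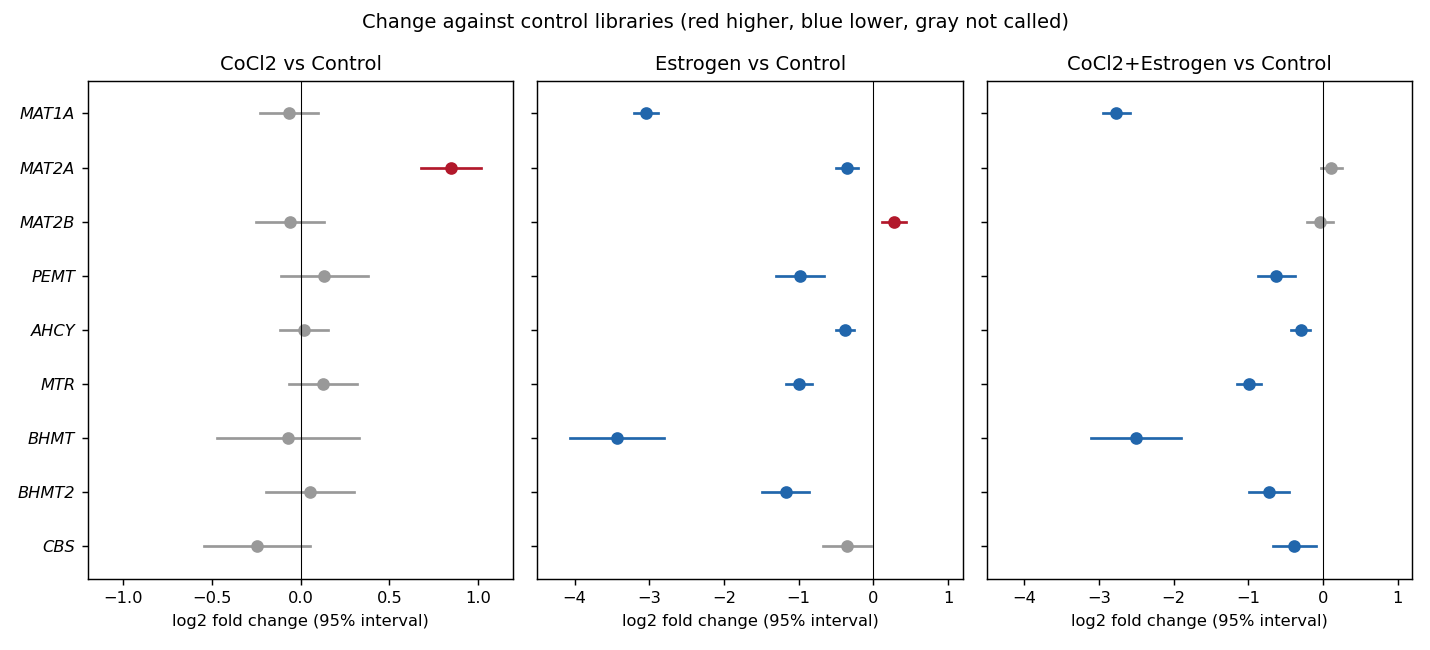
Log2 fold change of 9 members against Control with CoCl2, with Estrogen and with both, with 95% intervals from edgeR. Red is called higher, blue called lower and gray not called, and the CoCl2 panel has a narrower axis. *GNMT* is left out because its counts with estrogen were between 0 and 2. *MAT2A* is the single colored point of the CoCl2 panel, and *MAT1A* and *BHMT* lie farthest left in the other panels.

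The 3 genes that remethylate homocysteine were all lower with estrogen, to different degrees. *MTR*, the vitamin B12-dependent methionine synthase that takes its methyl group from folate, had 179, 181 and 148 CPM in Control and 168, 191 and 193 CPM in CoCl2 libraries. It had 81.6, 82.5 and 90.8 CPM with estrogen and 87.6, 84.7 and 89.0 CPM with both agents. Libraries with and without estrogen did not overlap, and the estrogen groups overlapped each other. *MTR* fell 1.99-fold in Estrogen against Control (SE 0.08 on the log2 scale, edgeR adjusted p = 2.91e-08) and 2.14-fold in CoCl2+Estrogen against CoCl2 (SE 0.07, edgeR adjusted p = 4.57e-08).

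*BHMT*, betaine-homocysteine methyltransferase, takes its methyl group from the choline product betaine and is a liver and kidney enzyme. Its counts were low, 81, 97 and 84 in Control, 70, 51 and 114 in CoCl2, 5, 5 and 9 in Estrogen and 15, 7 and 15 in CoCl2+Estrogen libraries. As CPM these were 4.23, 4.47 and 4.83 in Control, 3.75, 3.74 and 5.22 in CoCl2, 0.278, 0.356 and 0.622 in Estrogen and 0.998, 0.427 and 1.03 in CoCl2+Estrogen libraries. No library with estrogen came near those without it, while the 2 estrogen groups overlapped. *BHMT* fell by 3.43 under estrogen (SE 0.29, 10.8-fold, edgeR adjusted p = 5.59e-08) and it fell by 2.41 when estrogen was added to CoCl2 (SE 0.32, 5.32-fold, edgeR adjusted p = 2.28e-05). The difference between the estrogen groups, 0.97, had a 95% interval of -0.16 to 2.11 (edgeR adjusted p = 0.252).

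*BHMT2*, a close relative of *BHMT* that uses S-methylmethionine, fell less. Control had 11.4, 11.7 and 10.3 CPM, CoCl2 10.8, 12.03 and 11.7, Estrogen 4.96, 3.99 and 5.80 and CoCl2+Estrogen 6.05, 7.08 and 7.56 CPM. The groups with estrogen lay below those without it, and Estrogen lay below CoCl2+Estrogen with no overlap. *BHMT2* fell 2.26-fold under estrogen (log2 fold change -1.18, SE 0.15, edgeR adjusted p = 3.44e-06) and 1.69-fold when estrogen was added to CoCl2 (-0.76, SE 0.14, edgeR adjusted p = 0.000295). In CoCl2+Estrogen against Estrogen the log2 difference was 0.49 (SE 0.17, edgeR adjusted p = 0.0478), a call lost without any of 5 of the 6 libraries (all but Estrogen replicate C), with DESeq2 (adjusted p = 0.109) and under 3 other settings.

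*BHMT* and *MTR*, the betaine and folate routes, were also compared within each library. The log2 ratio of *BHMT* to *MTR* was -5.23 ± 0.25 (SD, n = 3) in Control, -5.46 ± 0.24 in CoCl2, -7.74 ± 0.51 in Estrogen and -6.82 ± 0.66 in CoCl2+Estrogen libraries. It was 5.68-fold lower with estrogen and 3.02-fold lower with both agents than in Control, with no overlap and an exact permutation p of 0.1 each, the smallest possible (adjusted p = 0.143 over 10 comparisons). Between CoCl2 and Control the log2 difference was -0.23 (SE 0.20, exact permutation p = 0.4). With estrogen the ratio rests on 5 to 15 *BHMT* counts per library. It too restates values already given, and its test adds no support of its own.

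*CBS* encodes cystathionine β-synthase, the entry into transsulfuration. The table holds a near-identical copy, *CBSL*, and reads were divided between the 2 rows in proportions that varied within groups. *CBS* took 84.2%, 81.4% and 57.8% of the reads of the pair in Control and 63.0%, 84.5% and 67.9% in CoCl2 libraries. With estrogen it took 62.4%, 41.6% and 46.0%, and with both agents 63.7%, 49.9% and 54.7%. The value of *CBS* alone is therefore uncertain.

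The *CBS* row had 29.6, 30.8 and 21.5 CPM in Control, 19.7, 25.2 and 23.9 in CoCl2, 26.9, 17.5 and 19.5 in Estrogen and 25.3, 19.6 and 19.6 in CoCl2+Estrogen libraries, and all 4 groups overlapped. Its log2 fold change under estrogen was -0.35 (SE 0.15, edgeR adjusted p = 0.0528), and it was called lower with upper-quartile scaling, library totals, no filter or the replicate block (adjusted p from 0.00669 to 0.0279) and without Control replicate C or Estrogen replicate A. It was called lower with both agents against Control, by 0.38 (SE 0.14, edgeR adjusted p = 0.0238), a call lost without any of 4 of the 6 libraries (Control replicates A or B, CoCl2+Estrogen replicates B or C). *CBSL* went the other way and rose under estrogen by 1.18 (SE 0.27, edgeR adjusted p = 0.00126).

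Adding the 2 rows turned the direction. *CBS* plus *CBSL* had 35.2, 37.8 and 37.1 CPM in Control, 31.3, 29.8 and 35.3 in CoCl2, 43.1, 41.9 and 42.4 in Estrogen and 39.7, 39.2 and 35.9 in CoCl2+Estrogen libraries. The Estrogen sums were above all others. The sum rose by 0.21 under estrogen (SE 0.07, edgeR adjusted p = 0.0131) and by 0.23 when estrogen was added to CoCl2 (SE 0.09, edgeR adjusted p = 0.0349), and its difference with both agents against Control was 0.03 (SE 0.08, edgeR adjusted p = 0.755). The call of *CBS* as lower with both agents does not hold for the sum. Summing the rows was chosen after the data had been seen.

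**Figure D4:**
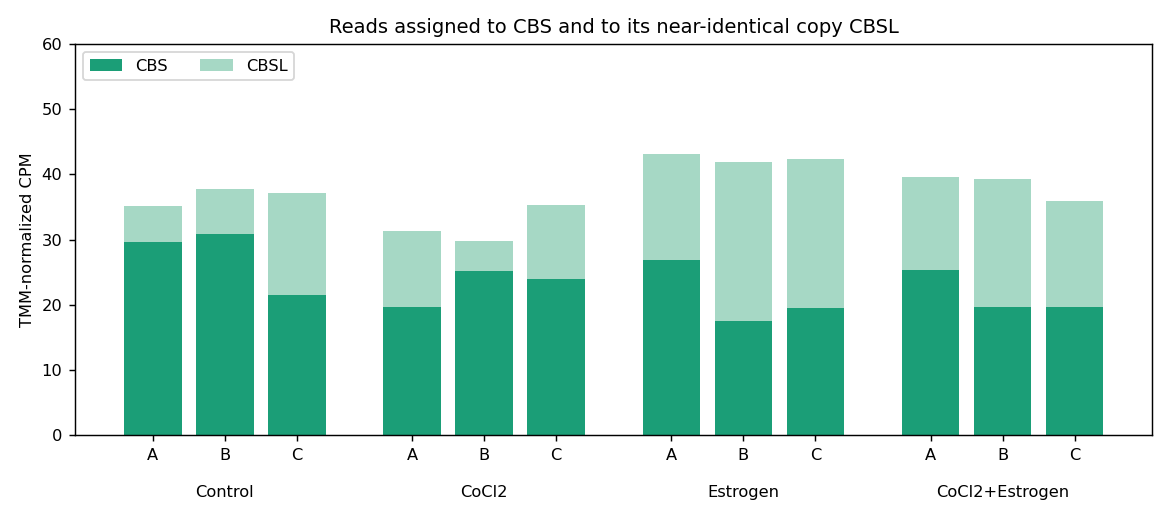
Stacked TMM-scaled CPM of *CBS* (dark) and its near-identical copy *CBSL* (light) in each of the 12 libraries, from 0. The height of the stack, 29.8 to 43.1 CPM, varies less within a group than the boundary between the 2 rows does.

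To ask whether estrogen acted differently with and without CoCl2, the 2 estrogen effects were compared in 1 interaction term over the 12 libraries. No member passed the threshold in edgeR (0 of 10, beside 5.80% of 16681 tested genes), and DESeq2 called 1, *MAT2A*. In edgeR, 4 of the 10 members had an unadjusted p under 0.05, beside 3072 of the 16681 tested genes. Under 4 other edgeR settings 1 member was called, *MAT2A* with no filter or with filterByExpr (adjusted p = 0.0237 and 0.0414) and *MAT1A* with upper-quartile scaling or library totals (0.0472 and 0.0401). For *MAT2A* the difference was -0.35 on the log2 scale, a larger fall with CoCl2 present (SE 0.11, edgeR adjusted p = 0.0807, DESeq2 -0.37 with adjusted p = 0.0134). Without CoCl2 replicate B, the smallest library, the edgeR adjusted p was 0.0175, and without CoCl2+Estrogen replicate C it was 0.0488. *MAT1A*, *BHMT* and *BHMT2* had differences of 0.38 (SE 0.12), 1.04 (SE 0.48) and 0.44 (SE 0.19), a smaller fall with CoCl2 present, with edgeR adjusted p values of 0.0708, 0.248 and 0.226. For *MTR* the difference was -0.08, with a 95% interval of -0.31 to 0.15, and for *AHCY* it was 0.11, with an interval of -0.08 to 0.30.

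**Figure D5:**
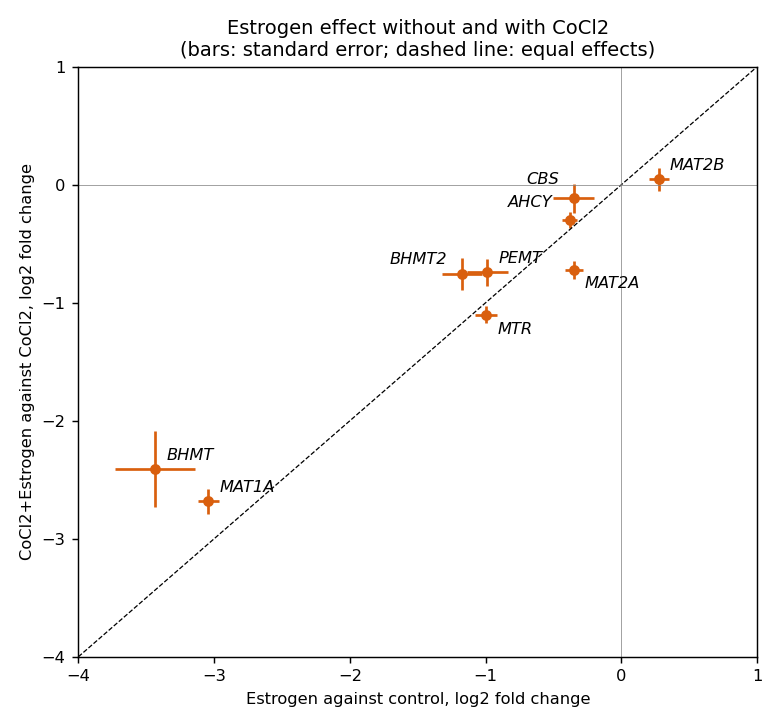
Log2 fold change of 9 members for Estrogen against Control (horizontal) and CoCl2+Estrogen against CoCl2 (vertical), which share no library. Bars are standard errors, the dashed line marks equal effects, and *GNMT* is left out for its low counts. *MAT1A*, *BHMT*, *BHMT2*, *PEMT*, *CBS* and *AHCY* lie above the line, and *MAT2A*, *MAT2B* and *MTR* below it. None of these distances passed the interaction test in edgeR with TMM scaling and the main filter, while *MAT2A* and *MAT1A* passed it under other settings.

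The wider pathway was followed in 80 further genes in 6 lists. In CoCl2 against Control, 2 of the 77 tested were called higher and 0 lower by edgeR (2.60%, beside 1.44% of all tested genes), *GCLC* (0.50, SE 0.07) and *GCLM* (0.68, SE 0.09), the catalytic and modifier subunits of the first enzyme of glutathione synthesis. In Estrogen against Control, 25 of 76 were called higher and 42 lower, or 88.2% beside 68.9% of all genes, and in CoCl2+Estrogen against CoCl2, 24 of 77 higher and 36 lower, or 77.9% beside 60.9%. With both agents against Control the counts were 24 higher and 40 lower of 76, or 84.2% beside 65.4%. The counts by list that follow are read beside 68.9%, the share of all tested genes called under estrogen.

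Around remethylation, 9 of 20 folate and vitamin B12 genes rose and 10 fell under estrogen. *MTHFD1*, which interconverts forms of folate, fell (log2 fold change -1.50, SE 0.06, edgeR adjusted p = 2.46e-11), and *SHMT1*, the cytosolic serine hydroxymethyltransferase, fell by 2.08 (SE 0.09, edgeR adjusted p = 2.55e-11). *MTRR*, which reactivates the *MTR* enzyme, fell by 0.37 (SE 0.08, edgeR adjusted p = 0.000766), from 51.2 ± 4.06 CPM in Control to 39.7 ± 2.78 CPM in Estrogen libraries (SD, n = 3).

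Of 9 genes listed around choline and betaine oxidation, 7 fell under estrogen and 1, *CHKA*, rose by 1.42. The median log2 fold change of the 9 was -1.60. *ALDH7A1*, which makes betaine from betaine aldehyde, went from 85.3 ± 2.37 to 15.4 ± 2.37 CPM (SD, n = 3), a change of -2.47 (SE 0.09, edgeR adjusted p = 6.12e-12). *SARDH*, the sarcosine dehydrogenase, fell by 2.93, and *AMT*, of the glycine cleavage system, fell by 2.71. The same 7 falls and 1 rise in number were counted with both agents against Control and against CoCl2.

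In transsulfuration and cysteine use, 4 of 11 genes rose and 6 fell under estrogen. *CTH*, which follows *CBS* and releases cysteine, had 5.72 ± 0.205 CPM in Control, 6.27 ± 0.361 in CoCl2, 14.0 ± 2.07 in Estrogen and 8.70 ± 0.513 in CoCl2+Estrogen libraries (SD, n = 3). It rose by 1.30 under estrogen (SE 0.14, edgeR adjusted p = 5.05e-07) and by 0.45 when estrogen was added to CoCl2 (SE 0.14, edgeR adjusted p = 0.0137). The 2 effects differed by -0.82 (SE 0.18, edgeR adjusted p = 0.0107 for the interaction). *GCLC* rose (1.05), and *SUOX*, sulfite oxidase, and *CDO1*, cysteine dioxygenase, fell by 1.73 and 1.53.

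Among 18 genes of SAM use and SAH removal, 16 were tested under estrogen, of which 12 fell and 2 rose. *GAMT*, which makes creatine and is a main user of SAM, went from 57.0 ± 6.03 to 7.43 ± 1.98 CPM (SD, n = 3), a change of -2.96 (SE 0.14, edgeR adjusted p = 8.41e-11). The histone methyltransferase gene *EHMT2* fell by 1.73 and the arginine methyltransferase gene *PRMT1* by 0.64. *METTL16*, an RNA methyltransferase known to govern *MAT2A* RNA processing, fell by 0.47 under estrogen (SE 0.07, edgeR adjusted p = 1.36e-05), and its log2 fold change under CoCl2, where *MAT2A* rose, was -0.18 (SE 0.08, edgeR adjusted p = 0.422). Of the relatives of *AHCY*, *AHCYL1* fell by 0.55 under estrogen (SE 0.06, edgeR adjusted p = 1.35e-06) and *AHCYL2* differed by 0.08 (SE 0.10, edgeR adjusted p = 0.457).

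Of 11 genes of polyamine synthesis and methionine salvage, 3 rose and 5 fell under estrogen, a share near that of all genes. *AMD1*, which decarboxylates SAM and so commits it to polyamines, rose by 1.16 (SE 0.06, edgeR adjusted p = 1.77e-10), *SMOX*, spermine oxidase, rose by 2.44, and *SRM*, spermidine synthase, fell by 1.17. Of 9 tested transporters that carry methionine and other neutral amino acids, or partner such carriers, 6 rose and 2 fell, with a median log2 fold change of 0.86. *SLC38A2* (1.68), *SLC3A2* (1.55) and *SLC38A1* (1.43) had the smallest adjusted p values.

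Across these lists, the interaction of estrogen and CoCl2 called 7 of 77 genes, 5 higher and 2 lower (9.09%, beside 5.80% of all genes). Beside *CTH*, the other lower gene was *SMOX* (-0.66, SE 0.09, edgeR adjusted p = 0.000209), and *EHMT2* (0.62), *GCSH* (0.55), *METTL3* (0.43), *SRM* (0.41) and *MTHFD1* (0.33) were higher. In CoCl2+Estrogen against Estrogen, 11 of 76 genes were called higher and 8 lower, or 25.0% beside 17.0% of all genes, with *GCLC* (0.61) and *GCLM* (0.43) among the higher and *CTH* (-0.68) among the lower.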

How the data were processed

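Total RNA of 12 HepG2 libraries (stranded kit, ribosomal RNA depleted) was analysed. According to the submitters' processing notes and the study's methods, the tools were Bowtie2 2.2.5, STAR 2.7.8a and Partek, with builds hg38 and mm10 named; how strand was counted is not given in the sources used here. The table the authors deposited holds estimated counts, with no scaling between libraries: 28278 gene rows, 7034 without a count, 23.3% of values not whole. These were rounded. Each comparison was fitted on its 6 libraries, and the interaction on all 12, in R 4.3.3 with edgeR 4.0.16: TMM scaling, a filter that kept genes reaching more than 5 counts somewhere in the fitted libraries, the quasi-likelihood test and Benjamini-Hochberg adjustment over all tested genes (threshold 0.05). CPM use TMM factors over the 12 libraries. Totals were 16360154 to 20725246 in Control, 13592637 to 21701480 in CoCl2, 14593865 to 18498152 in Estrogen and 15066039 to 16866725 in CoCl2+Estrogen libraries. Bounds use a floor of 3 counts per library.

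The members and gene lists were chosen with earlier results of these data known. All 10 members are named, with near-identical or readthrough rows. From each list, at most 3 called genes per comparison with the smallest adjusted p are named, as are *METTL16*, *AHCYL1*, *AHCYL2*, *CTH* and *MTRR* whatever their values. Some genes that meet this rule are not reported here. Alternatives were DESeq2 1.42.0, other scalings, filters, a fit of all 12 libraries, a block for the replicate letter and dropping each library in turn, and summed rows were added after seeing the data. The scripts were tested on simulated data. The letters gave no sign of pairing between the libraries, which cannot exclude it. Over 13264 genes, same-letter libraries of different groups correlated from -0.31 to 0.29 in their deviations from group means. Libraries with different letters correlated from -0.39 to 0.35. The mouse liver libraries, promoters and sequences were not used here.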

Additional observations from a re-analysis of the deposited data

How the results depend on the processing

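The log2 fold changes of the members kept their direction and side of the threshold in 873 of 931 refits under the alternatives. The members called stayed between 9 and 10 for Estrogen against Control, at 1 for CoCl2 against Control, between 7 and 8 for CoCl2+Estrogen against Control and between 7 and 9 against CoCl2. Over all genes, the alternatives other than summed rows called 10316 to 11496, 136 to 359, 9820 to 10788 and 8938 to 10305, in the same order. For CoCl2+Estrogen against Estrogen the count was 5 with the replicate block (*MAT1A* and *AHCY* added) and between 1 and 3 when each library was left out, with 1 without Estrogen replicate A or CoCl2+Estrogen replicate C. The block changed 1 other call, *CBS* in Estrogen against Control (edgeR adjusted p = 0.0279), which was also called with upper-quartile scaling (0.0220), library totals (0.0121), no filter (0.00669) and without Control replicate C (0.00516) or Estrogen replicate A (0.00458), and 2 of the 12 libraries correlated best with their own letter. For the interaction the count was 1 with DESeq2, no filter or edgeR's filterByExpr (*MAT2A*) and with upper-quartile scaling or library totals (*MAT1A*), and 0 to 1 when each library was left out. Over all genes, CoCl2 against Control gave 345 calls with DESeq2, 359 with all 12 libraries in 1 fit, and 136 to 249 when each library was left out (136 without Control replicate A, 147 without Control replicate B, 140 without CoCl2 replicate C). CoCl2+Estrogen against Estrogen gave 1671 to 2493 when each library was left out, with 1671 without Estrogen replicate A. Over all alternatives it reached 3791, beside 2706 in the main fit, so the number of calls over all genes moved with the setting too. The interaction gave 678 to 1287 over all alternatives.

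Direction turned only where a change was near 0 or rows were summed, and in none of these was the main value called except *CBS* with both agents. With library totals alone, *AHCY* (-0.0443) and *BHMT2* (-0.00967) in CoCl2 against Control and *MAT2B* in CoCl2+Estrogen against CoCl2 (-0.00732) turned. With filterByExpr, *CBS* in CoCl2+Estrogen against Estrogen was -1.96e-05. Summed with *CBSL*, *CBS* was 0.21, 0.0286, 0.23 and -0.14 in Estrogen against Control and in CoCl2+Estrogen against Control, CoCl2 and Estrogen. When each library was left out, the ranges in CoCl2 against Control were -0.00583 to 0.0343 for *AHCY*, -0.25 to 0.0165 for *BHMT* and -0.10 to 0.0111 for *MAT2B*. For *MAT2B* they were -0.11 to 0.0208 in CoCl2+Estrogen against Control and -0.0371 to 0.10 against CoCl2, for *CBS* -0.12 to 0.22 against Estrogen, and for the *MTR* interaction -0.14 to 0.00560. The cause was not tested. Library totals alone moved the median of all genes by -0.13 in Estrogen against Control, with 43.0% of calls higher in place of 50.3%, and the share of interaction calls that were higher from 36.2% to 51.6%. Counts limit *GNMT*, at 0 to 2 with estrogen, and *BHMT*.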
